A study of Mus musculus with 8 samples.

Results

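The genes described here are neighbours of Nova2 on mouse chromosome 7, read in the cortex of Nova2 knockout (Nova2 KO) and wild type mice. The list names 45 genes, taken by name out of 12921 genes named by the probe sets of the array, and Nova2 itself is not among them. In the gene order of chromosome 7, 36 of them lie between Napa and Bcl3, on both sides of Nova2, and the other 9 lie farther out: Zfp110, Zfp324 and Ehd2 on the centromeric side, and Zfp109, Pafah1b3, Sertad1, Zfp780b, Nccrp1 and Actn4 on the telomeric side. Measured values of the same comparison entered the choice of these genes, so that every Nova2 KO against wild type value of a listed gene is given as a description and supports no test. No probe set used here named Tomm40, Bloc1s3, Gipr or Six5 alone. The other 41 genes had 613 probe sets, of which 554 passed a filter on dim signal.

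Genes that sit close together on a chromosome are inherited together. When a gene is disrupted in cells of one mouse strain and the allele is then bred into another strain, the stretch of chromosome around it comes along, and its sequence variants can alter the expression or the probe binding of neighbouring genes whatever the deleted gene does. Nova2 is an RNA-binding protein of neurons that directs alternative splicing, so its loss can also alter other transcripts through their RNA. Between a KO and a wild type group both kinds of change fall together, and in this design they cannot be told apart.

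Total RNA of the cortex, from CD1 mice aged 10 days after birth, was hybridised to Affymetrix exon arrays, 1 array per mouse, with 4 Nova2 KO and 4 wild type mice. Both groups share the strain, the tissue and the age. The part of Nova2 that was deleted, the strain of the cells in which the allele was made and the degree of backcrossing were not stated in the sources used here. Each array gave 1 log2 value for each of 391597 probe sets, short groups of probes that mostly cover single exons. Array medians ran from 7.02 to 7.37 log2, the lowest in both groups being that of array 4, and 0.991% to 3.34% of an array's values lay at the floor of the scale near 4 log2. The groups were apart for 3 of the 16 Nova2 probe sets, of which 4414499 (0.70 log2) and 4355944 (0.40 log2) were higher in Nova2 KO. The third and largest, 5294108, was lower, with 6.28, 7.17, 7.26 and 6.73 log2 on Nova2 KO arrays 1 to 4, against 8.87, 8.65, 8.53 and 8.66 log2 on wild type arrays 1 to 4 (change -1.82 log2, limma adjusted p = 0.0786 over all kept probe sets). The Nova2 gene value differed by -0.016 log2 (SE 0.11). Which Nova2 probe sets lie in the deleted part is not known here, so the gene value could not be used to check the deletion. Cortical projection neuron markers, read as the mean gene value of 4 measured of 6 listed, lay between 9.66 and 9.91 log2 on Nova2 KO arrays and between 9.60 and 9.80 log2 on wild type arrays. The lowest of them, Tbr1, averaged 7.71 log2 and so stood above the floor.

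For each array and gene, the gene value is the median log2 signal of those kept probe sets that name no second gene, provided there were at least 3. It could be formed for 40 of the 45 genes, and Relb, with 2 kept probe sets, had none. A change is the mean over the 4 Nova2 KO arrays minus the mean over the 4 wild type arrays, and its standard error (SE) comes from limma fitted over all 11992 genes. Groups are called apart where all 4 Nova2 KO values lie on one side of all 4 wild type values.

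The 40 gene values held small and large differences. Changes lay within 0.2 log2 of 0 for 55% of them, against 77.6% of all genes, and beyond 0.3 log2 for 22.5%, against 7.86% of all genes. Of the 40 gene values, 15 were higher and 25 lower in Nova2 KO and the median change was -0.085 log2, against a median of 0.022 log2 over all genes. Changes ran from -0.64 log2 (Zfp109) to 0.54 log2 (Zfp110), and 16 genes lay within 0.1 log2 of 0. One gene, Zfp110, was called by limma at an adjusted p under 0.05, where 0.208% of all genes were called. The groups were apart for 7 genes, where 7.56% of all genes were apart. Of the 7, 2 lay above wild type (5.06% of all genes) and 5 below (2.5% of all genes). Since the comparison was used in choosing the genes, nothing is read from these counts.

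The list holds 2 kinds of genes, those of the run from Napa to Bcl3 and those picked from outside it, so a difference between the 2 kinds is not read as an effect of distance. Among the 31 measured genes from Napa to Bcl3, changes ran from -0.29 to 0.30 log2, and 22 (71.0%) lay within 0.2 log2 of 0, against 77.6% of all genes. The groups were apart for Calm3 and Clptm1, which is 6.45% of the 31, against 7.56% of all genes. All 9 genes farther out differed by more than 0.3 log2, the smallest being Actn4 (-0.32 log2). In the order of measured genes counted from Nova2, Ehd2 stood at place 24, Zfp324 at 35 and Zfp110 at 37 on the centromeric side, and Zfp109 at 32, Pafah1b3 at 56, Sertad1 at 81, Zfp780b at 92, Nccrp1 at 106 and Actn4 at 119 on the telomeric side. The rule by which the list was made states no threshold. Of the 116 other measured genes in the same stretch, 5 also differed by more than 0.3 log2: Ercc2 (-0.90 log2), Ercc1 (0.44 log2), Zfp111 (-0.38 log2), Tmem91 (-0.37 log2) and Dact3 (-0.34 log2).

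The outermost listed genes, Zfp110 and Actn4, bound a stretch in which every measured gene was read, listed or not. From Zfp110 to Actn4 the gene table (RefSeq, assembly GRCm38.p6) has 419 protein-coding genes, and 156 of them had a gene value. Their median change was -0.024 log2, and 72.4% lay within 0.2 log2 of 0, against 77.6% of all genes. The 10 nearest measured genes on each side of Nova2 had a median change of -0.062 log2, the 25 nearest -0.0088 log2, the 50 nearest -0.027 log2 and the 100 nearest -0.015 log2, where the centromeric side ran out after 70 measured genes. Beyond these, the rest of chromosome 7 stood at 0.0043 log2 over 707 genes. Groups were apart for 5% of the 10 nearest on each side (1 of 20 genes), 12% of the 25 nearest and 9% of the 50 nearest. The share was 7.06% for the 100 nearest and 8.49% for the rest of the chromosome, against 7.56% of all genes. Each wider window holds the narrower ones and listed genes are among them, so a trend with distance from Nova2 was not tested.

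The nearest measured gene on the centromeric side was Ccdc61, a centrosomal protein gene, at -0.27 log2. On the telomeric side it was Mypop, which is not on the list, at -0.087 log2. Between Ccdc61 and the next measured gene, Hif3a, the gene table holds 24 genes, and 19 of these are Psg or Ceacam genes, which encode immunoglobulin-like proteins, many of them of the placenta. None of the 24 had a gene value, so that this portion of the centromeric flank of Nova2 was not read.

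**Figure D1:**
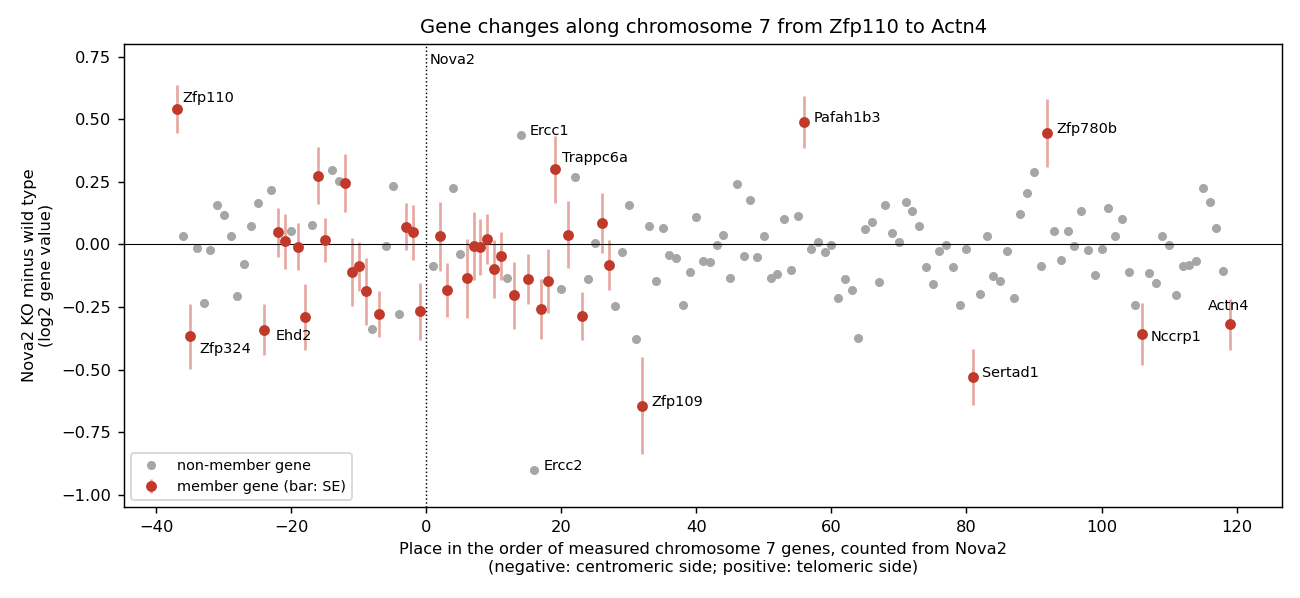
Change of the gene value (Nova2 KO minus wild type, log2, vertical axis) against the place of each measured gene in chromosome 7 order counted from Nova2 (horizontal axis), for the 40 listed genes with their SE and 116 other genes between Zfp110 and Actn4. Listed genes from Napa to Bcl3 lie within 0.3 log2 of 0, and the 9 listed genes outside that run lie beyond 0.3 log2. Measured values of this comparison entered the choice of the listed genes, so this difference is not read as an effect of distance. Ercc1 and Ercc2, which are not on the list, stand at 0.44 and -0.90 log2.

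Genes of transcription held both ends of the range. Of 11 listed genes 9 were measured, 4 higher and 5 lower in Nova2 KO. Zfp110 encodes NRIF, a zinc finger protein that binds the p75 neurotrophin receptor, and its gene value was 7.96, 7.89, 7.80 and 7.88 log2 on Nova2 KO arrays 1 to 4, against 7.38, 7.47, 7.23 and 7.28 log2 on wild type arrays 1 to 4. All 4 Nova2 KO values lay above all 4 wild type values, with a change of 0.54 log2 (1.45-fold, SE 0.095). The call for Zfp110 was lost in 15 of 19 other settings, among them each of the 8 that left out 1 array. The size rested on how probe sets were combined. The median of its 12 single probe set changes was 0.30 log2, and the mean over probe sets gave 0.26 log2. Of the 12 probe sets 9 were higher and 3 lower, down to -0.41 log2, and 4504017 differed by 0.12 log2.

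The zinc finger gene Zfp109 went the other way, with 6.86, 7.02, 6.54 and 6.05 log2 on Nova2 KO arrays 1 to 4, against 7.38, 7.26, 7.51 and 6.90 log2 on wild type arrays 1 to 4. Nova2 KO array 2 lay above wild type array 4, the other Nova2 KO arrays lay below every wild type array, the change was -0.64 log2 (SE 0.19), and all 7 of its kept probe sets were lower. In both groups array 4 was the lowest. Zfp780b, which encodes a further zinc finger protein, had 7.78, 7.75, 7.88 and 7.62 log2 on Nova2 KO arrays 1 to 4, against 7.35, 7.22, 7.68 and 6.99 log2 on wild type arrays 1 to 4, a change of 0.45 log2 (SE 0.14) in which Nova2 KO array 4 lay below wild type array 3. Zfp324, also of the zinc finger family, had 7.43, 7.41, 7.35 and 7.59 log2 on Nova2 KO arrays 1 to 4, against 8.13, 7.61, 7.57 and 7.94 log2 on wild type arrays 1 to 4. Its groups overlapped by Nova2 KO array 4 and wild type array 3 alone, at a change of -0.37 log2 (SE 0.13). Zinc finger genes share sequence: 4 further probe sets named Zfp110 along with other genes, 3 did so for Zfp109 and 25 for Zfp780b, and these were left out, so the values of the 3 genes are uncertain to that extent.

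Sertad1 encodes a regulator of E2F transcription and of the cell cycle. Its gene value was 7.05, 6.93, 6.87 and 6.75 log2 on Nova2 KO arrays 1 to 4, against 7.20, 7.61, 7.47 and 7.44 log2 on wild type arrays 1 to 4. Every Nova2 KO value lay below every wild type value, with a change of -0.53 log2 (SE 0.11), and wild type stood 1.44-fold above Nova2 KO. It rested on 4 probe sets, of which 5229086 differed by -0.66 and 4700958 by -0.46 log2 with groups apart, 5267643 differed by -0.20 log2, and 4449892 by 0.10 log2. The NF-kappaB-related gene Bcl3 (-0.083 log2), the corepressor gene Irf2bp1 (0.032 log2), the hypoxia-inducible factor gene Hif3a (0.047 log2) and Ppp1r13l, which encodes the p53 inhibitor iASPP (-0.14 log2), had groups that overlapped. Relb, the partner of the alternative NF-kappaB pathway, was read by 2 probe sets, at 0.16 and -0.23 log2.

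Promoters were sought for the 3 genes with the largest changes, in either direction, among those with groups apart: Zfp110, Sertad1 and Pafah1b3. None was available for Pafah1b3. The promoters of Zfp110 and Sertad1, from 250 bases before to 50 bases after the start of the gene, are shown. They come from RefSeq (build GRCm38.p6, chr7:12834511-12834810 and chr7:27486703-27487002, both plus strand), and 37 of the 45 genes are in that table. Capitals mark matches, on either strand, to the GC box GGGCGG, to CCAAT and to TATAAA, none of which overlap here.
Zfp110: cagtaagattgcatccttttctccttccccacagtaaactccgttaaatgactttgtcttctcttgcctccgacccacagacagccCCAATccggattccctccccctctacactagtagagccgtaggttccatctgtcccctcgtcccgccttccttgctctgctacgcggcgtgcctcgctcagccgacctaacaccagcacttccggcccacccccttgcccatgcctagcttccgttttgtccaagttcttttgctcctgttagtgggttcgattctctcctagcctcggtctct
Sertad1: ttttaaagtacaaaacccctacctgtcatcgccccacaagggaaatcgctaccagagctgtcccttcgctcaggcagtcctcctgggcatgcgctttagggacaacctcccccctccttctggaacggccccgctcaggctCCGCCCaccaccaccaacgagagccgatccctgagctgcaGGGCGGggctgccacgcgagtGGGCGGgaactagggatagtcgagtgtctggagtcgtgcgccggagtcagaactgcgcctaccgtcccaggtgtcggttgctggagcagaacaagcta
The Zfp110 window held 1 CCAAT match and no GC box, with 15 CG dinucleotides and 55.7% G and C. The Sertad1 window held 3 GC boxes and no CCAAT match, with 20 CG dinucleotides and 62% G and C. Of 32851 promoters of this length, 35.7% held a GC box, 37.4% a CCAAT match and 13.6% a TATAAA match. A match describes the letters of the reference strain, and the alleles of these mice were not read.

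The 4 RNA processing genes, all measured, were 2 higher and 2 lower in Nova2 KO. Gemin7, a component of the SMN complex that assembles spliceosomal particles, was at 0.038 log2, and Sympk (symplekin), a scaffold of 3-prime end formation, at -0.18 log2. In Sympk 26 of 33 kept probe sets were lower, and 8 of these had groups apart, with none apart above wild type. Zc3h4, which limits the transcription of noncoding DNA, was at 0.017 log2, and the RNA helicase gene Dhx34, of nonsense-mediated decay, at -0.0087 log2. No gene of this group had its groups apart.

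Among the 6 measured genes of kinases, phosphatases and calcium signalling, 5 were lower in Nova2 KO. Calm3, one of the genes for calmodulin, the calcium sensor, had 12.03, 11.96, 12.06 and 12.11 log2 on Nova2 KO arrays 1 to 4, against 12.38, 12.20, 12.37 and 12.32 log2 on wild type arrays 1 to 4. The groups were apart, with a change of -0.28 log2 (SE 0.092). Its gene value is the value of a single probe set, 5005554, because Calm3 has 3 probe sets and this was the middle one on every array. Of the other 2, 4654710 differed by -0.053 log2 and 5127168 by 0.62 log2 in the opposite direction. Mark4, a kinase that phosphorylates microtubule-associated proteins (-0.15 log2), Dmpk, the myotonic dystrophy kinase (-0.13 log2), the protein kinase D gene Prkd2 (-0.19 log2), Strn4, a striatin of phosphatase complexes (-0.087 log2), and the phosphatase gene Ppp5c (0.071 log2) had overlapping groups.

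Of 6 cytoskeletal genes, 4 were lower in Nova2 KO. Actn4 encodes alpha-actinin-4, which crosslinks actin filaments, and had 9.97, 9.98, 9.65 and 9.84 log2 on Nova2 KO arrays 1 to 4, against 10.14, 10.25, 10.15 and 10.18 log2 on wild type arrays 1 to 4. The groups were apart, and the change was -0.32 log2 (SE 0.10). The direction held for 25 of its 26 probe sets, and 8 of them had groups apart, where 2.04% of all kept probe sets were apart below wild type. Wild type arrays lay within a narrow band, and Nova2 KO array 3 was the lowest. Klc3, a kinesin light chain (-0.26 log2), Ccdc61, described above, the actin regulator Vasp (-0.046 log2), the microtubule-binding protein Eml2 (0.021 log2) and Kptn, an mTOR pathway regulator also known to bind actin (0.012 log2), had overlapping groups.

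In membrane traffic, 5 of 6 genes were measured, 3 higher and 2 lower. Ehd2, an ATPase of caveolae, had 7.09, 7.25, 7.43 and 7.44 log2 on Nova2 KO arrays 1 to 4, against 7.64, 7.67, 7.58 and 7.67 log2 on wild type arrays 1 to 4. The groups were apart, with a change of -0.34 log2 (SE 0.10). Trappc6a, a subunit of the TRAPP tethering complex, had 8.23, 7.73, 8.35 and 8.14 log2 on Nova2 KO arrays 1 to 4, against 7.70, 7.70, 7.88 and 7.97 log2 on wild type arrays 1 to 4, where Nova2 KO array 2 lay within the wild type values and the other 3 above them (change 0.30 log2, SE 0.13). Ap2s1, the small subunit of the clathrin adaptor AP-2, had 11.73, 11.44, 11.95 and 11.67 log2 on Nova2 KO arrays 1 to 4, against 11.35, 11.46, 11.43 and 11.56 log2 on wild type arrays 1 to 4 (change 0.24 log2, SE 0.12), and again Nova2 KO array 2 was the lowest of its group. Napa, which encodes alpha-SNAP (0.048 log2), and Rtn2, a reticulon of the endoplasmic reticulum (-0.20 log2), had overlapping groups.

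Markers of several other cell types were lower in Nova2 KO. Over all genes, 5351 of 11992 were lower and 0.208% were called by limma. All 7 measured of 8 oligodendrocyte genes were lower (median -0.58 log2, 2 called by limma). Their mean gene value lay between 8.58 and 8.91 log2 on Nova2 KO arrays and between 9.17 and 9.45 log2 on wild type arrays. All 6 measured of 7 endothelial genes were lower (median -0.12 log2), at 7.57 to 7.83 log2 on Nova2 KO arrays and 7.83 to 7.91 log2 on wild type arrays. Of 4 measured of 5 meningeal genes 3 were lower, and Dcn was higher (0.13 log2) with groups apart. The meningeal median was -0.25 log2, at 8.65 to 8.97 log2 on Nova2 KO arrays and at 8.97 to 9.11 log2 on wild type arrays. The lowest measured marker of each of these 3 lists, Mal (8.14 log2), Tek (7.35 log2) and Col3a1 (8.11 log2), stood above the floor of the scale. Of 5 measured astrocyte genes 4 were lower (median -0.16 log2), and of 5 measured microglial genes 4 were lower (median -0.18 log2). All 4 measured general neuron genes were higher (median 0.091 log2). The 1 measured of 3 blood genes, Alas2, differed by -0.72 log2 with overlapping groups. All 3 measured of 4 thalamus genes were lower (median -0.035 log2). Of the 2 measured striatum genes 1 was higher and 1 lower, and so it was for the 2 measured choroid plexus genes. Ehd2 is known as a gene of vessels and fat. The part of these marker differences in the values of Ehd2 and Actn4 was not tested. In tissue RNA, fewer cells of a type and less RNA per cell cannot be told apart.

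Pafah1b3 encodes a catalytic subunit of the platelet-activating factor acetylhydrolase that binds the product of the lissencephaly gene. Its gene value was 9.15, 9.31, 9.38 and 9.54 log2 on Nova2 KO arrays 1 to 4, against 8.83, 8.93, 8.78 and 8.89 log2 on wild type arrays 1 to 4. All Nova2 KO values lay above all wild type values, with a change of 0.49 log2 (1.40-fold, SE 0.10). Of its 6 probe sets, 4 had groups apart, at 0.42 to 0.54 log2, where 3.05% of all kept probe sets were apart above wild type. The other 2 differed by 0.018 log2 (4386116) and -0.11 log2 (4941230), and the mean over probe sets gave 0.298 log2.

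Clptm1, whose product holds GABA-A receptors back in the endoplasmic reticulum, was the other gene of its group with groups apart. It had 10.85, 10.71, 10.68 and 10.61 log2 on Nova2 KO arrays 1 to 4, against 10.97, 10.94, 11.13 and 10.95 log2 on wild type arrays 1 to 4, a change of -0.29 log2 (SE 0.097). Probe set 4809790 of Clptm1 had 10.91, 10.77, 10.63 and 10.55 log2 on Nova2 KO arrays 1 to 4, against 11.48, 11.43, 11.45 and 11.45 log2 on wild type arrays 1 to 4, with wild type arrays within 0.1 log2 of each other and every Nova2 KO array below them. The change of 4809790 was -0.74 log2 (SE 0.12). The cell adhesion gene Bcam had 7.42, 7.39, 7.57 and 7.57 log2 on Nova2 KO arrays 1 to 4, against 7.52, 7.07, 7.56 and 7.45 log2 on wild type arrays 1 to 4, a change of 0.087 log2 (SE 0.12). Its groups overlapped, and the change was -0.022 log2 without wild type array 2. Slc1a5, a neutral amino acid transporter (-0.11 log2), and Qpctl, a glutaminyl cyclase of the Golgi (-0.0089 log2), also overlapped.

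The remaining genes gave no groups apart. Sae1, a subunit of the enzyme that activates SUMO, had 9.77, 9.94, 9.80 and 9.99 log2 on Nova2 KO arrays 1 to 4, against 9.44, 9.71, 9.82 and 9.43 log2 on wild type arrays 1 to 4, so that 3 of 4 wild type arrays lay below every Nova2 KO array (change 0.27 log2, SE 0.11). In Sae1 10 of 11 probe sets were higher, and 4 had groups apart, where 3.05% of all kept probe sets were apart above wild type. Nccrp1, an F-box-associated protein, had 7.19, 6.88, 7.07 and 7.06 log2 on Nova2 KO arrays 1 to 4, against 7.59, 7.10, 7.37 and 7.56 log2 on wild type arrays 1 to 4 (change -0.36 log2, SE 0.12), with wild type array 2 inside the Nova2 KO values. Fbxo46, a subunit of ubiquitin ligases, differed by -0.0072 log2. Ccdc9 had 7.73, 7.55, 7.72 and 7.96 log2 on Nova2 KO arrays 1 to 4, against 8.34, 7.98, 7.77 and 8.05 log2 on wild type arrays 1 to 4 (change -0.29 log2, SE 0.13), and Nova2 KO array 4 lay above wild type array 3. The mitochondrial gene Opa3 differed by -0.097 log2. Ppp5c, the phosphatase gene named above, had 10.88, 10.70, 10.78 and 10.83 log2 on Nova2 KO arrays 1 to 4, against 10.86, 10.68, 10.64 and 10.72 log2 on wild type arrays 1 to 4, with overlapping groups.

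The size of several gene changes depended on how the probe sets were combined. With the mean in place of the median over probe sets, Sertad1 differed by -0.31 log2, Zfp780b by 0.25 log2, Zfp324 by -0.19 log2, Trappc6a by 0.16 log2, Nccrp1 by -0.16 log2 and Clptm1 by -0.15 log2. With the filter at the 50th percentile Zfp110 differed by 0.26 log2, Zfp780b by 0.19 log2, Nccrp1 by -0.13 log2 and Ap2s1 by 0.39 log2. Zfp109 and Sertad1 had no gene value under that filter. Both are dim, at percentiles 8.91 and 13.6 of gene level among all genes. Without any filter Ehd2 differed by -0.24 log2. A single array also weighed on Ap2s1 (0.16 log2 without Nova2 KO array 3) and Ccdc9 (-0.19 log2 without wild type array 1), Ppp5c ran from 0.043 to 0.12 log2 as 1 array was left out, and Sae1 differed by 0.18 log2 without both arrays numbered 4. None of the recomputed changes given here turned its direction, and for Zfp109 and Sertad1 the stricter filter gave no value to compare.

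**Figure D2:**
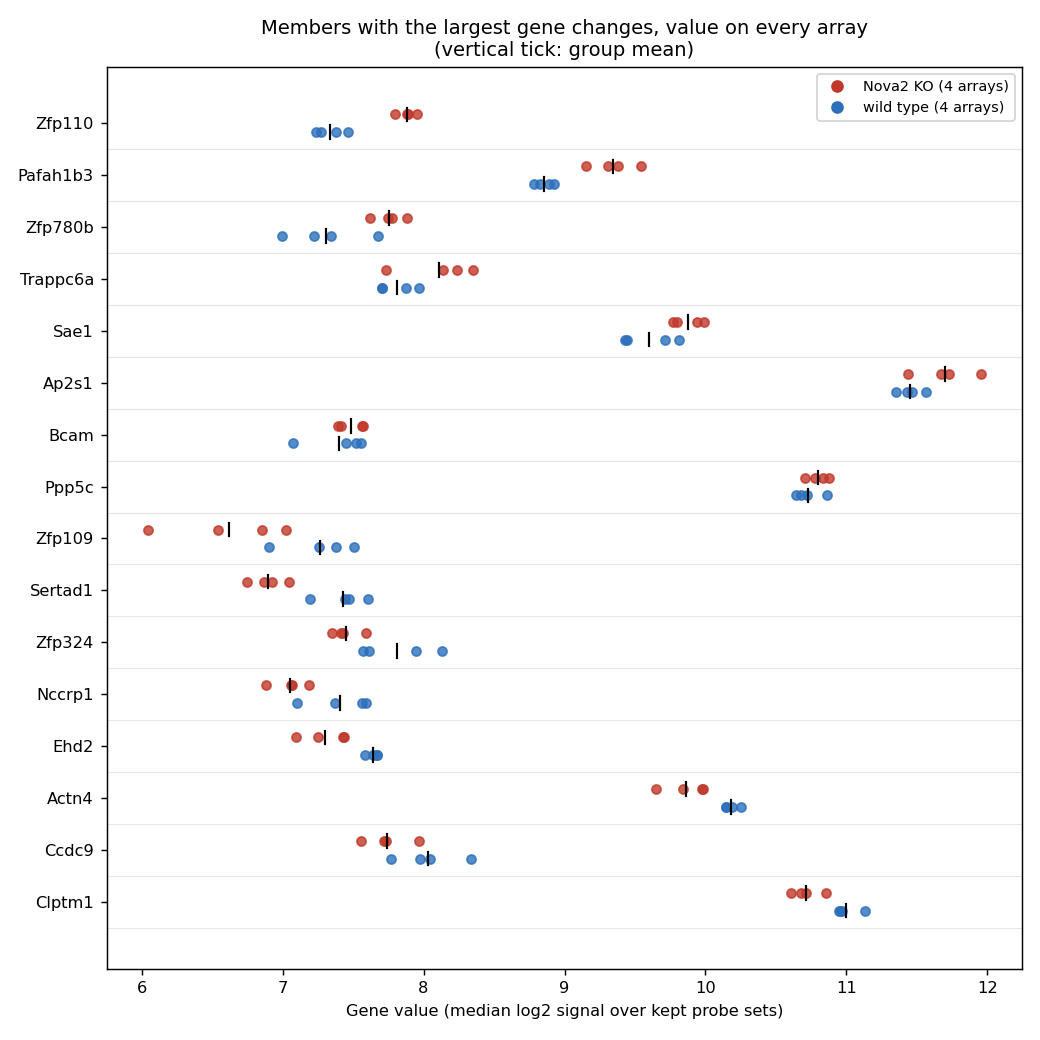
Gene values (log2, horizontal axis) on every array for the 8 listed genes with the largest positive and the 8 with the largest negative change, Nova2 KO arrays above wild type arrays, with a tick at each group mean. The groups do not overlap for Zfp110, Pafah1b3, Sertad1, Ehd2, Actn4 and Clptm1.

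Single probe sets showed more variety than the gene values. Over the 554 kept probe sets, 235 were higher and 319 lower in Nova2 KO and the median change was -0.038 log2, against 0.0061 log2 over all 293697 kept probe sets. The groups were apart for 75 of them, 30 above and 45 below wild type, where 5.1% of all kept probe sets were apart, 3.05% above and 2.04% below. Among the 198965 kept probe sets that name 1 gene, as the listed ones do, 6.09% were apart and the median change was 0.013 log2. By limma 0 of the 554 were called, where 0.00681% of all were called. An unadjusted p under 0.05 was found for 89 of the 554 and for 19610 of all 293697, and since the same comparison was used in choosing the genes nothing is read from this. With the eBayes trend and robust setting 1 was called, Clptm1 4809790. The probe sets with groups apart lay in 30 of the 41 genes, and in 3 genes (Opa3, Calm3 and Zc3h4) they went both ways. Zfp109 alone among the 41 had all its kept probe sets in one direction.

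**Figure D3:**
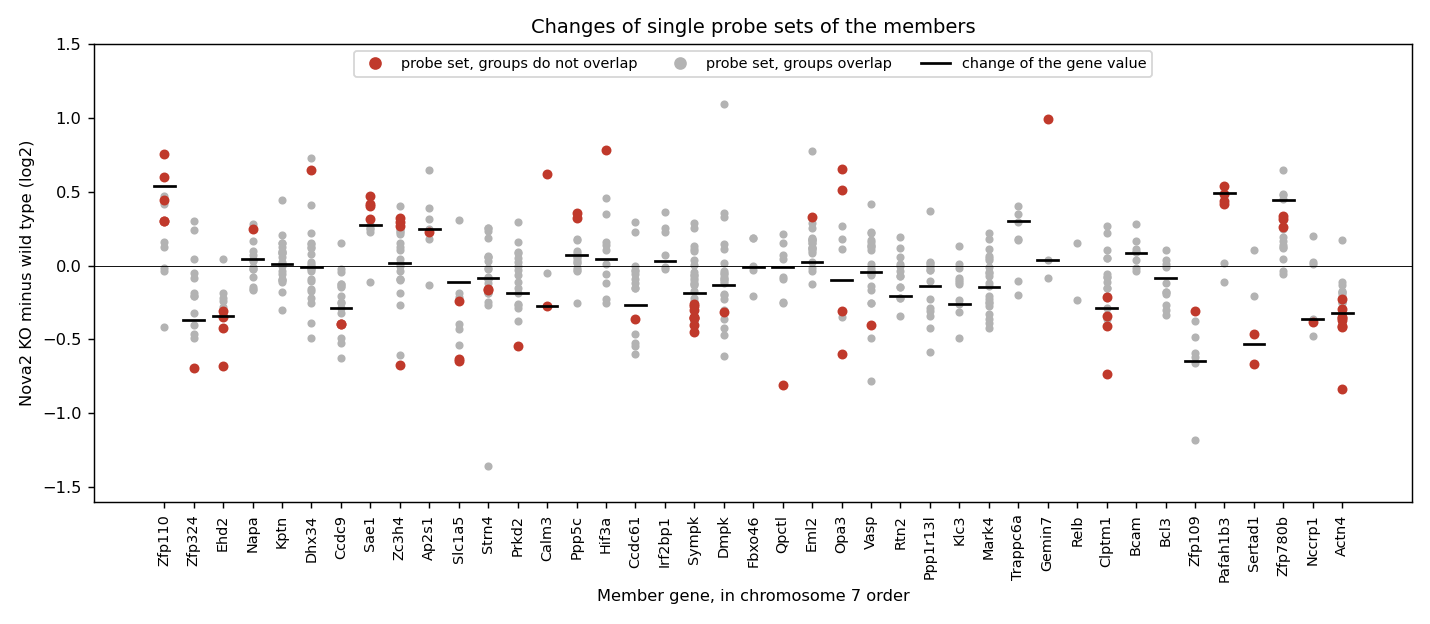
Change of each kept probe set (Nova2 KO minus wild type, log2, vertical axis) by listed gene in chromosome 7 order (horizontal axis), coloured where the groups do not overlap, with a bar for the change of the gene value. Most genes span 0, and the probe sets of Gemin7, Qpctl, Hif3a and Zc3h4 that stand out lie far from the bar of their gene.

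The largest separated change among the probe sets higher in Nova2 KO was in Gemin7. Probe set 4833941 had 8.96, 9.58, 10.19 and 10.02 log2 on Nova2 KO arrays 1 to 4, against 8.75, 8.63, 8.90 and 8.50 log2 on wild type arrays 1 to 4. Nova2 KO array 1 lay just above wild type array 3, the other 3 Nova2 KO arrays were well above, and the change was 0.99 log2 (SE 0.25). The other 2 Gemin7 probe sets differed by 0.038 and -0.084 log2, so that the gene value did not show it. In Hif3a, probe set 4334640 had 8.05, 8.82, 8.40 and 8.05 log2 on Nova2 KO arrays 1 to 4, against 7.18, 7.89, 7.54 and 7.58 log2 on wild type arrays 1 to 4 (change 0.78 log2, SE 0.21), and the remaining 10 kept probe sets of Hif3a ran from -0.25 to 0.46 log2. Zfp110 had 2 probe sets in this set: 5106239, with 8.02, 7.85, 7.67 and 7.97 log2 on Nova2 KO arrays 1 to 4, against 7.28, 6.97, 6.90 and 7.35 log2 on wild type arrays 1 to 4, and 4544927, with 7.19, 7.16, 6.95 and 6.95 log2 on Nova2 KO arrays 1 to 4, against 6.41, 6.90, 6.62 and 5.92 log2 on wild type arrays 1 to 4. The Zfp110 probe sets differed by 0.75 log2 (SE 0.15) and by 0.60 log2 (SE 0.20).

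Opa3, a mitochondrial protein that is mutated in a form of optic atrophy, held separated probe sets in both directions. Probe set 4644859 of Opa3 had 10.48, 9.81, 10.49 and 10.04 log2 on Nova2 KO arrays 1 to 4, against 9.60, 9.46, 9.65 and 9.50 log2 on wild type arrays 1 to 4, a change of 0.66 log2 (SE 0.17), and 4974581 differed by 0.51 log2. Against these, 5051218 differed by -0.60 log2, with 7.72, 7.71, 8.13 and 7.42 log2 on Nova2 KO arrays 1 to 4, against 8.42, 8.16, 8.43 and 8.37 log2 on wild type arrays 1 to 4, and 5454839 by -0.31 log2. All 4 had groups apart, while the gene value differed by -0.097 log2. Calm3 had the like: 5127168 had 10.91, 11.19, 11.51 and 11.52 log2 on Nova2 KO arrays 1 to 4, against 10.67, 10.63, 10.64 and 10.70 log2 on wild type arrays 1 to 4, a change of 0.62 log2 (SE 0.16), in which wild type arrays stayed within 0.1 log2 of each other. Dhx34 probe set 4472588 had 6.80, 6.50, 6.26 and 6.47 log2 on Nova2 KO arrays 1 to 4, against 5.62, 6.22, 5.96 and 5.64 log2 on wild type arrays 1 to 4 (change 0.65 log2), and its wild type values lay about the filter value of 5.86 log2, where sizes are less certain. Pafah1b3 probe set 5228899 had 9.31, 9.47, 9.48 and 9.59 log2 on Nova2 KO arrays 1 to 4, against 8.93, 8.91, 8.98 and 8.87 log2 on wild type arrays 1 to 4 (change 0.54 log2, SE 0.12).

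**Figure D4:**
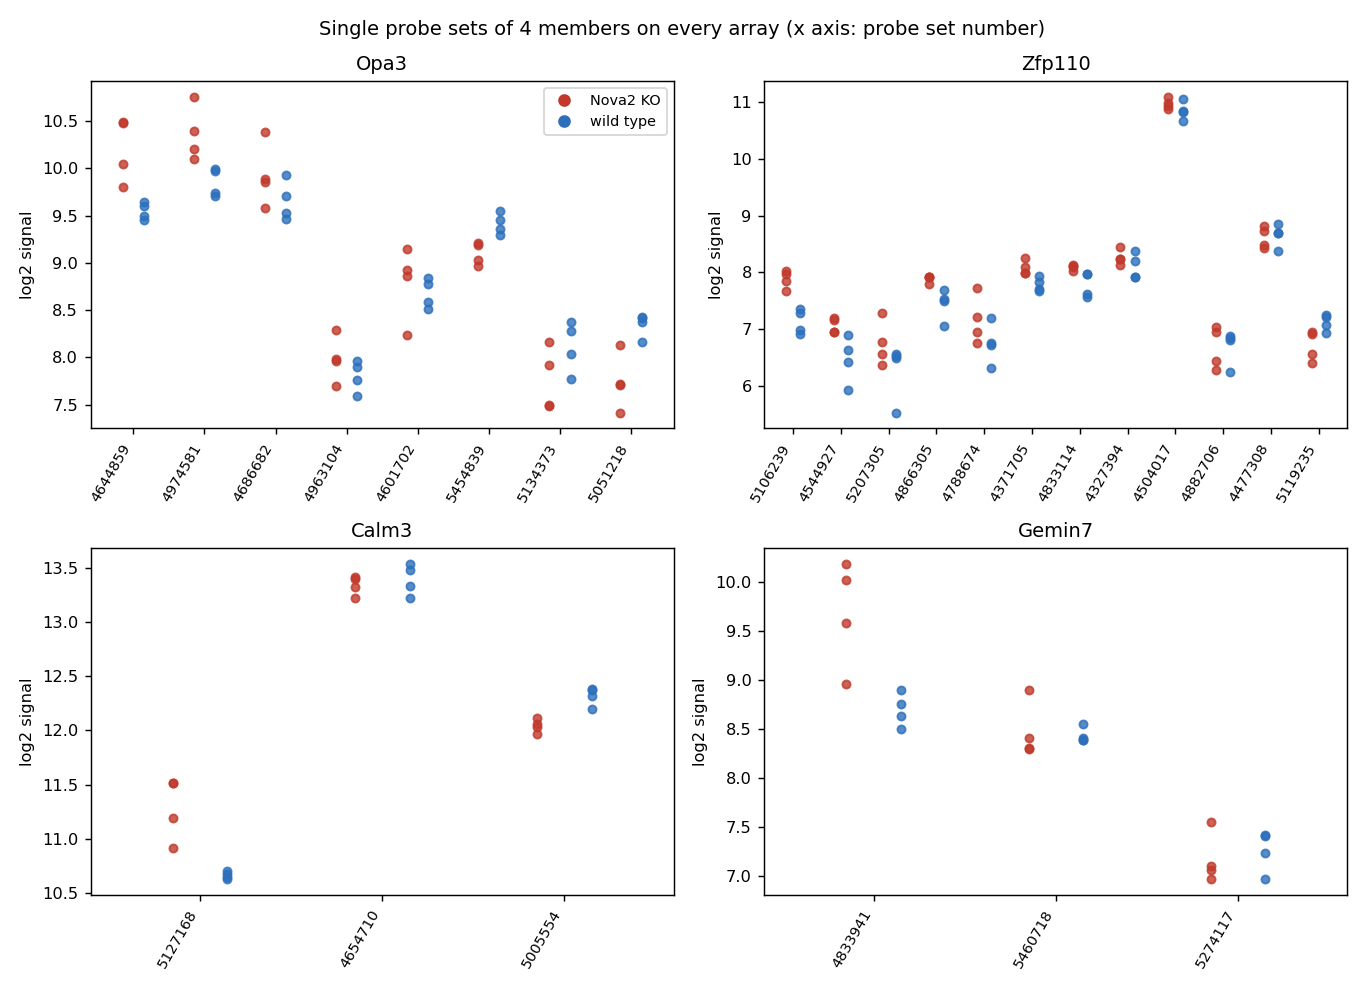
Log2 signal (vertical axis) of every kept probe set of Opa3, Zfp110, Calm3 and Gemin7 (horizontal axis, by probe set number, ordered by change) on each array, Nova2 KO left and wild type right. In Opa3 and Calm3 some probe sets lie higher and others lower in Nova2 KO, and in Gemin7 1 of 3 is separated.

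Among the probe sets lower in Nova2 KO, Actn4 4514421 had 9.36, 9.31, 7.11 and 9.19 log2 on Nova2 KO arrays 1 to 4, against 9.72, 9.46, 9.45 and 9.69 log2 on wild type arrays 1 to 4. Its change of -0.84 log2 (SE 0.45) rested on Nova2 KO array 3, and it was -0.29 log2 without that array. Qpctl 4567156 had 6.54, 5.92, 6.52 and 6.12 log2 on Nova2 KO arrays 1 to 4, against 7.29, 7.07, 7.28 and 6.68 log2 on wild type arrays 1 to 4, with all Nova2 KO arrays below all wild type arrays (change -0.81 log2, SE 0.20), while the Qpctl gene value differed by -0.0089 log2. Zfp324 4814574 had 8.42, 8.64, 8.39 and 8.13 log2 on Nova2 KO arrays 1 to 4, against 9.06, 9.18, 9.35 and 8.76 log2 on wild type arrays 1 to 4 (change -0.69 log2), and Ehd2 4685510 had 7.09, 7.31, 7.40 and 7.47 log2 on Nova2 KO arrays 1 to 4, against 8.21, 8.20, 7.92 and 7.67 log2 on wild type arrays 1 to 4 (change -0.68 log2). In these 2 genes the probe sets went the way of the gene.

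Zc3h4 4707387 had 8.40, 8.33, 8.59 and 8.24 log2 on Nova2 KO arrays 1 to 4, against 9.20, 9.02, 8.82 and 9.19 log2 on wild type arrays 1 to 4, a change of -0.67 log2 (SE 0.14) against a gene value at 0.017 log2. Of its other 22 kept probe sets 3 were apart in the opposite direction. Sertad1 5229086 had 6.65, 6.62, 6.33 and 6.37 log2 on Nova2 KO arrays 1 to 4, against 6.87, 7.34, 7.21 and 7.21 log2 on wild type arrays 1 to 4 (change -0.66 log2), the way of its gene. Slc1a5 5517280 had 7.32, 7.20, 7.35 and 7.44 log2 on Nova2 KO arrays 1 to 4, against 7.92, 8.13, 8.01 and 7.83 log2 on wild type arrays 1 to 4 (change -0.65 log2, SE 0.12), and 2 further Slc1a5 probe sets were also below wild type with groups apart. At the ends of the whole range stood 2 probe sets whose groups overlapped, Strn4 5449320 (-1.36 log2) and Dmpk 5049750 (1.09 log2), the second with wild type values from 4.41 to 7.68 log2.

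The exon usage index, the difference between a probe set's log2 signal and its gene value on that array, was read for 541 probe sets in the 37 genes with 5 or more. By limma 0 were called, where 0.0139% of all 194707 were called, and an unadjusted p under 0.05 was found for 54 of the 541 and for 12869 of all. Groups were apart for 41, 16 above and 25 below wild type, where 4.12% of all were apart, 2.07% above and 2.05% below, and they lay in 22 genes. The largest of the 41 were Zfp110 5119235 (-0.95 log2), Qpctl 4567156 (-0.80 log2), Opa3 4644859 (0.75 log2), Vasp 5407664 (-0.74 log2), Zc3h4 4707387 (-0.69 log2), Dhx34 4472588 (0.66 log2) and Opa3 4974581 (0.61 log2). For Zfp110 the index joins 2 differences, since 5119235 itself differed by -0.41 log2 in signal, with overlapping groups, and the gene value by 0.54 log2. For Qpctl, Opa3, Zc3h4 and Dhx34 the gene value differed by less than 0.1 log2, and the index carried the change of the probe set. Which exon each probe set covers was not analysed here.

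Spread within a group is a measure that a mean difference does not fix. Over the 31 measured genes from Napa to Bcl3, the SD between arrays was larger in Nova2 KO than in wild type for 17, with a median SD of 0.137 log2 in Nova2 KO and 0.128 log2 in wild type. Over all genes, Nova2 KO had the larger SD in 53.5%, with medians of 0.163 log2 in Nova2 KO and 0.153 log2 in wild type. In their gene values the Nova2 KO mice thus varied among themselves about as widely as the wild type mice did. Over the 452 kept probe sets of listed genes from Napa to Bcl3, the median SD was 0.217 log2 in Nova2 KO and 0.190 log2 in wild type. Nova2 KO had the larger SD in 56.6% of these probe sets. Over all kept probe sets both medians were 0.247 log2, and Nova2 KO had the larger SD in 49.0%. Many of those name no gene. Over the 198965 kept probe sets that name 1 gene, as the listed ones do, the medians were 0.223 log2 in Nova2 KO and 0.214 log2 in wild type. Nova2 KO had the larger SD in 51.3% of these.

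Ercc1 and Ercc2, both outside the list and named after their values were seen, lie within the run from Napa to Bcl3. Ercc2 encodes a helicase and Ercc1 a nuclease subunit of nucleotide excision repair, and Ppp1r13l is the 1 measured gene between them. Ercc2 had 7.51, 7.56, 7.26 and 6.51 log2 on Nova2 KO arrays 1 to 4, against 8.01, 8.26, 8.24 and 7.94 log2 on wild type arrays 1 to 4, a change of -0.90 log2 (SE 0.20), with every Nova2 KO value below every wild type value. Ercc1 had 9.04, 8.96, 9.30 and 9.06 log2 on Nova2 KO arrays 1 to 4, against 8.91, 8.68, 8.62 and 8.40 log2 on wild type arrays 1 to 4, a change of 0.44 log2 (SE 0.12), with every Nova2 KO value above every wild type value. Neither was called by limma over all genes (adjusted p = 0.136 for Ercc2 and 0.241 for Ercc1). No gene among the 50 nearest on each side other than Zfp110 was called.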

How the data were processed

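Per the submitters' processing notes, the authors summarised the arrays with PLIER (version not given). The deposited values are log2 signals per probe set, on a scale whose floor near 4 an offset of 16 before the logarithm would give. Background correction, normalization and build are not given in the sources used here, and values were left as deposited. Names came from GEO's annotation of the platform, in which 228454 probe sets had 1 gene, 3443 had several and 159700 were unnamed here, and 2203 of 13017 symbols were updated through synonyms of the RefSeq gene table (GRCm38.p6). That table also gave the gene order, and the files' build is unknown, so no distances are printed.

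A probe set was kept if its mean across the 8 arrays lay above 5.86 log2, the 25th percentile, which left 293697. Gene value and index are as defined in the results, and 307 index values without variance were left out. Tests were limma 3.58.1 (lmFit and eBayes, R 4.3.3) over all features, Nova2 KO minus wild type, two-sided, Benjamini-Hochberg at 0.05. The steps were also run on simulated data whose noise was independent between arrays, so that run vouches for no call made here. Plots used Python 3.11.15 and matplotlib 3.10.9. The precision is limited by the number of arrays. The labels name the mice as biological replicates.

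The genes, role groups and marker lists were chosen with earlier results of these data known. Values on every array are given for the 8 highest and 8 lowest gene changes and for Calm3, and for separated probe sets the 8 highest and 8 lowest, at most 2 per gene. Calm3, some further Opa3 and Zfp110 probe sets, Strn4 5449320, Dmpk 5049750, Zfp111, Tmem91, Dact3, Ercc1 and Ercc2 were named after their values were seen. Alternatives were other filters, scalings, offsets, summaries, covariates and variance models, the replicate block and leaving out arrays.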

Additional observations from a re-analysis of the deposited data

Results flagged for a closer look

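In 68 groups of 4 arrays, 1 array was searched for that stood far from the other 3, by Dixon's ratio at the 95% level. Chance gives about 1 in 20 such groups, and 2 were found. For the Clptm1 gene value, wild type array 3 (11.1 log2) stood above the other 3 wild type arrays (10.94 to 10.97 log2). For probe set 4514421 of Actn4, Nova2 KO array 3 (7.11 log2) stood below the other 3 Nova2 KO arrays (9.19 to 9.36 log2), and the change of the probe set was -0.29 log2 without it.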

How the results depend on the processing

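Of the values recomputed, 3 turned their direction: the median change of the 31 genes from Napa to Bcl3, -0.046 log2, was 0.025 log2 with the mean in place of the median over probe sets, Bcam was at -0.022 log2 without wild type array 2, and the median over all genes, 0.022 log2, was -0.0083 log2 without wild type array 4. The call for Zfp110 held without the filter, with the offset of 16 removed, with the array median as covariate and with the replicate block. No listed gene was called (0) with the filter at the 50th percentile, quantile normalization, median centring, both arrays numbered 4 left out, eBayes with trend and robust, the mean over probe sets or genes with 1 or more probe sets, while 3 were called with the covariate (Zfp110, Pafah1b3 and Sertad1). Over all genes 25 were called, against 13 with median centring, 54 with the covariate and 11 without both arrays numbered 4. Over all probe sets 20 were called, against 6 without the filter, 88 at the 50th percentile, 86 with quantile normalization, 85 with centring, 6 with the offset removed, 184 with the covariate, 2 without both arrays numbered 4 and 165 with trend and robust, which called 1 listed probe set. The index called 27, against 53 at the 50th percentile (1 in a listed gene), 2 without both arrays numbered 4 and 43 with the mean. Listed genes with groups apart, 7 in all, numbered 11 without both arrays numbered 4, where 19.0% of all genes were apart. Listed probe sets apart, 75 in all, then numbered 129. Fewer arrays separate more easily by construction. The share of all probe sets apart was not computed where arrays were left out, so nothing is read from these probe set counts. Median centring left 4 listed genes apart above and 2 below wild type, against 2 above and 5 below as deposited, with 5.53% of all genes apart. Leaving out 1 array called 6 to 16 genes, 0 to 9 probe sets, 15 to 20 index values and no listed gene or probe set (0). Listed genes apart then numbered 7 to 12, where 9.71% to 14.1% of all genes were apart. Listed probe sets apart numbered 90 to 105. The median over listed genes ran from -0.097 to -0.063 log2, and that from Napa to Bcl3 from -0.061 to -0.0068 log2. Same-numbered arrays of the 2 groups correlated at 0.143, 0.333, 0.0237 and 0.565 in their deviations, and arrays of unlike number at -0.457 to 0.276. Not every array correlated best with its own number. The labels do not say that a number pairs mice, and the main fit leaves the numbers out. Whether arrays of the same number share a batch was not tested. The replicate block called 80 genes, 7 probe sets, 6 index values and 3 listed genes (Zfp110, Pafah1b3 and Zfp109). Values near the floor near 4 log2 limit what dim probe sets can show.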
